A study of Mus musculus with 8 samples.

Results

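The nuclear genes of mitochondrial complex I and its assembly factors were followed in RNA seq of whole cochleae. They were taken as every gene whose symbol begins with Nduf, which gave 45 genes among the 47628 named entries of the count tables. Symbols ending in -ps, for pseudogenes, were to be left out, and there were 0 of them. All 45 were above the minimum count and were tested. The mice carried on 1 Opa1 allele a knock-in of the human c.2708_2711delTTAG deletion (Opa1+/-, 4 mice, called 2, 7, C and D here, where C and D stand for the lower and the higher 3-digit animal number) or were littermates with 2 intact alleles (WT, 4 mice, animals 4, 5, 6 and 8). All were untreated, on postnatal day 21, on a mixed background of C57BL/6J and 129 Sv/Pas, and the deletion was present in every cell of the animal. OPA1 is the GTPase that fuses the mitochondrial inner membrane and keeps its cristae in shape.

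Complex I takes electrons from NADH, passes them along a chain of iron-sulfur clusters to ubiquinone and pumps protons across the inner membrane. Its core subunits do the chemistry: those of the N module bind NADH, those of the Q module lead the electrons to ubiquinone, and those of the proton-pumping membrane arm are encoded by mitochondrial DNA. The accessory subunits, all nuclear, surround this core, and the assembly factors build the complex and then leave it. The cochlea is rich in cells of high energy demand, among them hair cells, spiral ganglion neurons and the stria vascularis.

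The Nduf RNAs with higher log2 fold changes in Opa1+/- cochleae tended to come from shorter transcripts with more G and C, with exceptions. To show what this means in sequence, the first 150 coding bases of 4 of these genes are given, with every G and C in capitals. Ndufs7 and Ndufb7 are GC-rich, and Ndufs1 and Ndufv2 are the core subunits with the lowest GC in the whole transcript. They were chosen after their values were seen. The sequences are from the GENCODE vM21 principal transcripts of GRCm38, exons joined, and the coordinates run from the first to the last base shown, introns included.

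Ndufs7: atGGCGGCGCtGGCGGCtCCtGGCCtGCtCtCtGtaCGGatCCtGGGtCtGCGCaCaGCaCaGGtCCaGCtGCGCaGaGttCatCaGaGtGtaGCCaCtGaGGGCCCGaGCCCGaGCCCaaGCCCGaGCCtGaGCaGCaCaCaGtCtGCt

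Ndufb7: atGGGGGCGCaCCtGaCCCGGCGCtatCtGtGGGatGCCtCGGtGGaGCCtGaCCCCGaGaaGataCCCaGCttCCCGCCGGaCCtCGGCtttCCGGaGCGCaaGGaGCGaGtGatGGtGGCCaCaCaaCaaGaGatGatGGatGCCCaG

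Ndufs1: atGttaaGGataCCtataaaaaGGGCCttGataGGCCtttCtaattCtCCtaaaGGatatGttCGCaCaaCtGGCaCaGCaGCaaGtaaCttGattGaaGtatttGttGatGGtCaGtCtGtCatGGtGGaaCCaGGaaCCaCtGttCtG

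Ndufv2: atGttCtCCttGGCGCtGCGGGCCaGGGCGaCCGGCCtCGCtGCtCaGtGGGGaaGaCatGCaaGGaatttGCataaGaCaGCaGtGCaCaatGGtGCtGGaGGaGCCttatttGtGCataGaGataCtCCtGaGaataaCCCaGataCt

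The Ndufs7 sequence lies on chr10:80249476-80253672 on the plus strand, the Ndufb7 sequence on chr8:83566819-83570867 on the plus strand, the Ndufs1 sequence on chr1:63170053-63170909 on the minus strand and the Ndufv2 sequence on chr17:66089461-66101465 on the minus strand. Of the 150 bases shown, 99 are G or C in Ndufs7 and 96 in Ndufb7, against 63 in Ndufs1 and 80 in Ndufv2. Over the whole transcripts, which are 758, 623, 2661 and 1697 bases long in that order, the shares were 60.7%, 59.7%, 45.1% and 42.0%. The Ndufv2 stretch shown, at 53.3%, is thus richer in G and C than its transcript and does not show the low share of the whole.

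Between 15978051 and 20828030 counts fell on named genes in each mouse, and between 0.310% and 0.350% of them on the Nduf genes. Levels are given as CPM, the count scaled to the library size after TMM correction, and log2 fold changes are of Opa1+/- against WT. The Opa1 RNA, which checks the genotype, averaged 120 CPM in the WT mice (SD 6.09, n = 4) and 65.6 CPM in the Opa1+/- mice (SD 4.42, n = 4), with a log2 fold change of -0.87 with a standard error of 0.0677 and an adjusted p of 0.00515 (edgeR quasi-likelihood test). The 4 Opa1+/- values, 60.4 to 70.02 CPM, all lay below the 4 WT values, 112 to 126 CPM, and the exact two-sided permutation p was 0.0286, the smallest that 4 against 4 mice can give. Without Opa1+/- mouse 2 the log2 fold change was -0.85 and the adjusted p 0.0704. WT mouse 8 and Opa1+/- mouse D stood at the 2 ends of the Nduf values: WT mouse 8 was the lowest of the 8 mice for 30 of the 45 genes, and Opa1+/- mouse D was the highest for 30. The same 2 mice had the lowest and the highest summed erythroid markers, 7749 and 25066 CPM, and the lowest and highest share of counts on mitochondrially encoded genes, 11.7% and 16.1%. The other mice did not keep one order. WT mouse 5 had a mitochondrial share of 16.0%, near that of mouse D. WT mouse 4 had the next highest erythroid sum, 21477 CPM, with 13 of the 45 genes above their mean over the 8 mice.

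No Nduf gene passed the adjusted threshold of 0.05, and the lowest adjusted p among the 45 was 0.722 (edgeR quasi-likelihood test, Benjamini-Hochberg over all 19366 genes tested, of which 0.0258% passed). DESeq2 called 25 genes in the whole table and none of the 45, with a lowest adjusted p of 0.381 among them. The fitted values nonetheless leaned one way. Of the 45 genes, 40 had a positive log2 fold change (88.9%, against 50.1% of all genes tested), with a median of 0.116 against 0.000395 over all genes. They ran from -0.12 (Ndufc2) to 0.24 (Ndufs7). With WT mouse 8 left out 36 of the 45 were positive, and with Opa1+/- mouse D left out 33. At an unadjusted p under 0.05, 11 of the 45 were higher in Opa1+/- cochleae (24.4%, against 3.51% of all genes tested) and 0 were lower (against 3.22%). Every Opa1+/- mouse was above every WT mouse for 8 genes (17.8%, against 1.98%), and below for 0 genes (against 2.33%). The genes are measured in the same 8 mice and are not independent of each other. In whole-tissue RNA, more RNA per cell and more cells that hold it cannot be told apart.

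**Figure D1:**
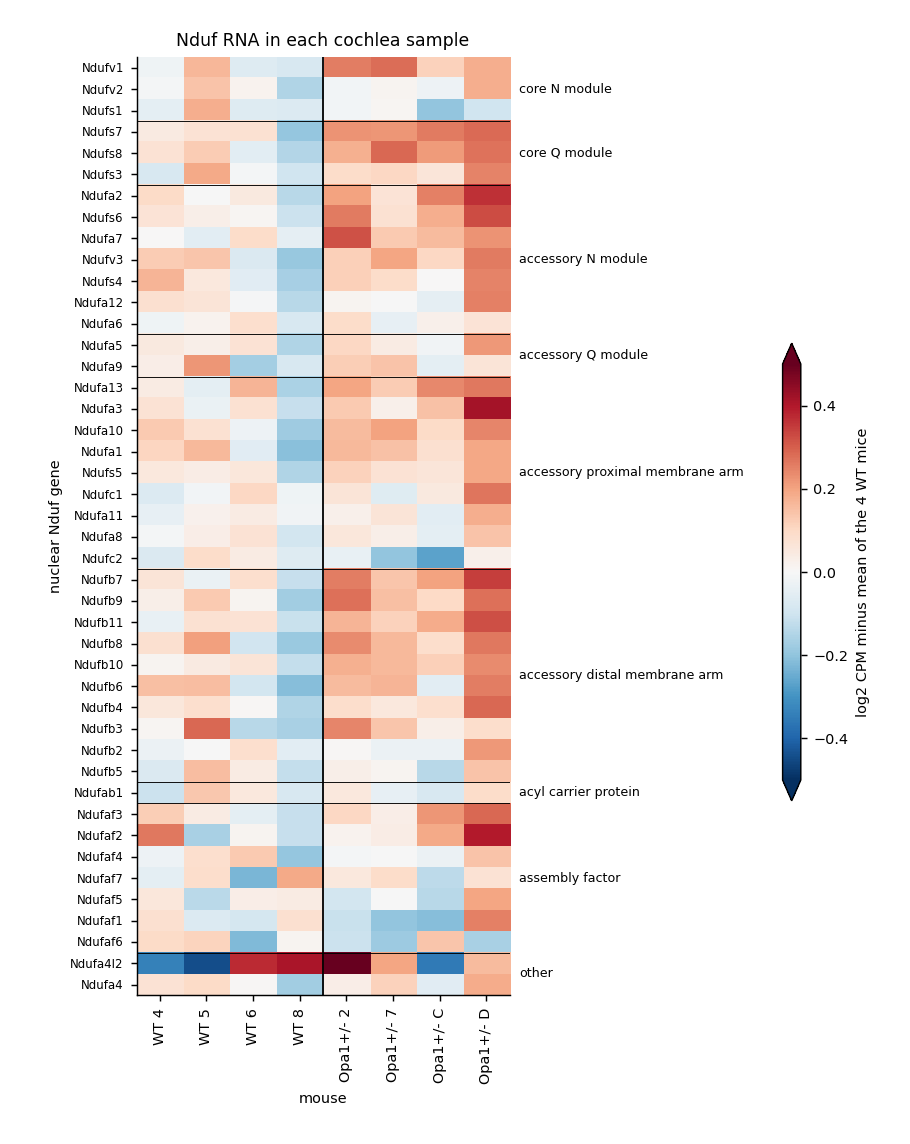
Each row is 1 of 44 nuclear Nduf genes, grouped by role, and each column a mouse. The colour is log2 CPM minus the mean of the 4 WT mice, and colours end at 0.5 on either side. WT mouse 8 is the lowest of the 8 mice in 30 rows and Opa1+/- mouse D the highest in 30.

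Summed over the 45 genes, the Nduf RNA averaged 3186 CPM in the WT mice (SD 193, n = 4) and 3440 CPM in the Opa1+/- mice (SD 166, n = 4), a ratio of 1.08. The WT sums ran from 2919 to 3381 CPM and the Opa1+/- sums from 3266 to 3664 CPM, so that the groups overlapped. The 28 accessory subunits summed to 2023 CPM (SD 122) in the WT and 2217 CPM (SD 117) in the Opa1+/- mice, a ratio of 1.096. The 7 nuclear core subunits summed to 774 CPM (SD 58.4) and 824 CPM (SD 32.6), a ratio of 1.06, and the 7 assembly factors to 123 CPM (SD 3.66) and 127 CPM (SD 9.42), a ratio of 1.03. The groups overlapped in each of these sums. For a single gene, the SD between mice of the same group had a median of 0.109 on the log2 scale over the 45 genes.

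The core subunits are taken by module, and whether the modules differ was not tested. In the Q module the median log2 fold change was 0.18 against 0.04 in the N module (0.05 against 0.10 with offsets for transcript GC and length), and 2 of the 4 Q module genes had an unadjusted p under 0.05. Ndufs7 encodes the subunit that holds the last iron-sulfur cluster before ubiquinone. Its RNA was 80.0, 81.4, 81.9 and 67.8 CPM in WT mice 4, 5, 6 and 8, and 90.5, 90.4, 93.0 and 94.3 CPM in Opa1+/- mice 2, 7, C and D. The groups did not overlap, and the WT value farthest from the Opa1+/- values was that of mouse 8. The log2 fold change was 0.24 with a standard error of 0.0695, an unadjusted p of 0.00621 and an adjusted p of 0.722 (edgeR).

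Ndufs8 encodes the subunit that carries the pair of clusters before it. Its RNA was 71.1, 73.8, 65.1 and 61.0 CPM in the WT mice and 76.4, 82.5, 78.3 and 81.6 CPM in the Opa1+/- mice, in the same order of animals, which is kept from here on. These groups also did not overlap, and the log2 fold change was 0.23 (SE 0.0697, unadjusted p = 0.00775 by edgeR). Ndufs3, another Q module subunit, was closer to WT. Ndufs3 was at 68.0, 82.0, 71.5 and 67.2 CPM in the WT and 76.7, 77.3, 74.9 and 85.3 CPM in the Opa1+/- mice, with a log2 fold change of 0.12 (SE 0.0771). Its groups overlapped.

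In the N module the log2 fold changes ran from -0.08 to 0.21. Ndufv1, the flavin-bearing subunit that meets NADH, was at 98.7, 112, 95.8 and 94.8 CPM in the WT and 119, 121, 108 and 114 CPM in the Opa1+/- mice, and its log2 fold change was 0.21 (SE 0.0717, unadjusted p = 0.0179 by edgeR). WT mouse 5 lay within the Opa1+/- values. Its partner Ndufv2 was at 180.0, 200.1, 184 and 163 CPM in the WT and 179, 183, 178 and 205 CPM in the Opa1+/- mice, with a log2 fold change of 0.04 (SE 0.0783). Ndufs1, the large iron-sulfur subunit of the module, was at 128, 149, 126 and 126 CPM in the WT and 131, 133, 115 and 123 CPM in the Opa1+/- mice, with a log2 fold change of -0.08 (SE 0.0778). Ndufv1 and Ndufv2 work as a pair in the complex, and whether their fold changes differ was not tested. Ndufv1 and Ndufs8 both lie on chromosome 19, at chr19:4007384-4012806 and chr19:3908863-3912774, both on the minus strand.

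**Figure D2:**
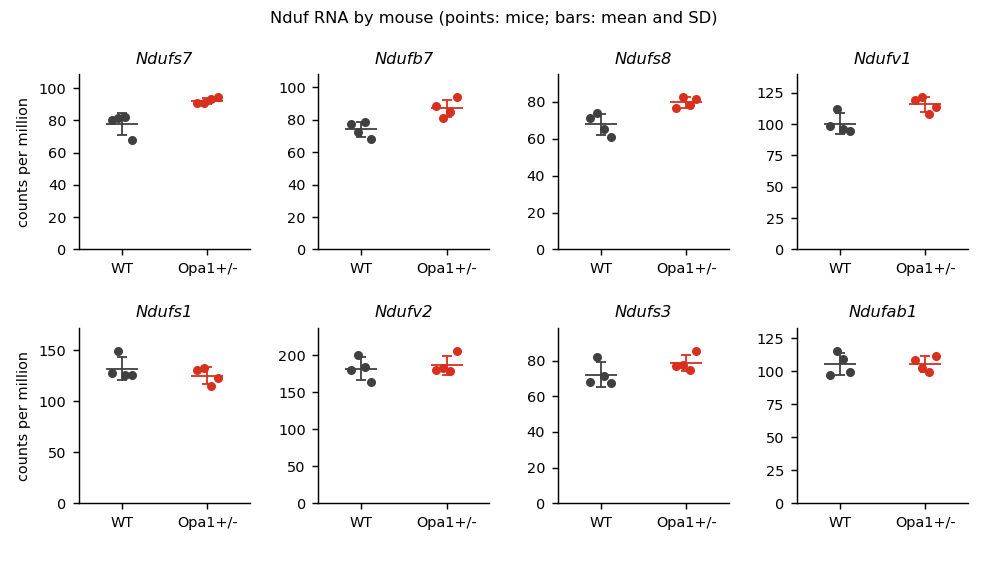
RNA of 8 Nduf genes in CPM (vertical axis from 0), with a point for each mouse and bars for the mean and SD of 4 WT and 4 Opa1+/- mice. For Ndufs7, Ndufb7 and Ndufs8 every red point is above every grey point, and in the other 5 panels the groups overlap.

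Among the accessory subunits, 27 of 28 log2 fold changes were positive, with a median of 0.13, and 8 had an unadjusted p under 0.05, all of them higher in Opa1+/- cochleae. They were spread over the N module (3 of 7 genes), the proximal membrane arm (1 of 9) and the distal membrane arm (4 of 10), with 0 of 2 in the Q module. The exception in sign was Ndufc2 of the proximal membrane arm, at -0.12 (unadjusted p = 0.158 by edgeR), a gene picked out here after its value was seen. The 20 accessory subunits with a larger p had log2 fold changes from this value up to 0.18 (Ndufa3), 19 of them positive.

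In the N module, Ndufa7, of the peripheral arm, was at 44.3, 42.7, 47.2 and 42.9 CPM in the WT and 55.2, 48.5, 49.4 and 51.7 CPM in the Opa1+/- mice, with a log2 fold change of 0.21 (SE 0.0606, unadjusted p = 0.00666 by edgeR). Ndufs6, a zinc-binding subunit, was at 48.3, 47.2, 46.4 and 42.9 CPM in the WT and 55.3, 48.6, 52.3 and 57.8 CPM in the Opa1+/- mice, with a log2 fold change of 0.21 (SE 0.0676, unadjusted p = 0.0114 by edgeR). For both genes every Opa1+/- mouse was above every WT mouse, for Ndufs6 by a small margin between Opa1+/- mouse 7 and WT mouse 4. Ndufa2, which has a thioredoxin-like fold, was at 78.1, 73.0, 75.6 and 66.4 CPM in the WT and 84.1, 76.7, 87.1 and 94.2 CPM in the Opa1+/- mice, with a log2 fold change of 0.22 (SE 0.0776, unadjusted p = 0.0174 by edgeR). Its groups overlapped through Opa1+/- mouse 7. Ndufa6, which holds an acyl carrier protein against the peripheral arm, had a log2 fold change of 0.04 (SE 0.0585), with 88.2 to 98.8 CPM in the WT and 90.6 to 99.3 CPM in the Opa1+/- mice.

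In the membrane arm, Ndufb7, which faces the intermembrane space, was at 77.2, 72.3, 78.3 and 68.3 CPM in the WT and 88.2, 81.3, 85.0 and 93.9 CPM in the Opa1+/- mice. The groups did not overlap, and the log2 fold change was 0.23 (SE 0.0680, unadjusted p = 0.00676 by edgeR). Ndufb11 was at 77.8, 84.2, 84.1 and 74.0 CPM in the WT and 89.9, 86.5, 90.8 and 99.9 CPM in the Opa1+/- mice, and Ndufb10 at 132, 135, 136 and 120 CPM in the WT and 147, 146, 142 and 154 CPM in the Opa1+/- mice. Neither overlapped between groups, and their log2 fold changes were 0.20 (SE 0.0682) and 0.17 (SE 0.0613). Ndufb9, another subunit that binds an acyl carrier protein, reached 108.5 CPM in WT mouse 5 and 106 CPM in Opa1+/- mouse C, so that its groups overlapped. Its log2 fold change was 0.20 (SE 0.0772).

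Of the proximal arm, Ndufa13, also known as GRIM-19, was at 71.6, 67.4, 78.3 and 62.4 CPM in the WT and 79.9, 76.1, 82.3 and 83.6 CPM in the Opa1+/- mice, with a log2 fold change of 0.20 (SE 0.0750). WT mouse 6 was above Opa1+/- mouse 7. Ndufs5 was at 77.5, 76.7, 77.7 and 67.4 CPM in the WT and 81.0, 78.6, 77.8 and 85.3 CPM in the Opa1+/- mice, without overlap by a small margin between WT mouse 6 and Opa1+/- mouse C, and with a log2 fold change of 0.11 (SE 0.0643, unadjusted p = 0.123 by edgeR). Part of the exons of Ndufa13 (375 of 1251 bases, with Tssk6), Ndufb11 (117 of 908, with Rbm10) and Ndufa2 (66 of 572, with Tmco6) overlaps a gene on the opposite strand, so that some of their counts may belong to it, and the use of strand in the counting is not given in the sources used here.

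**Figure D3:**
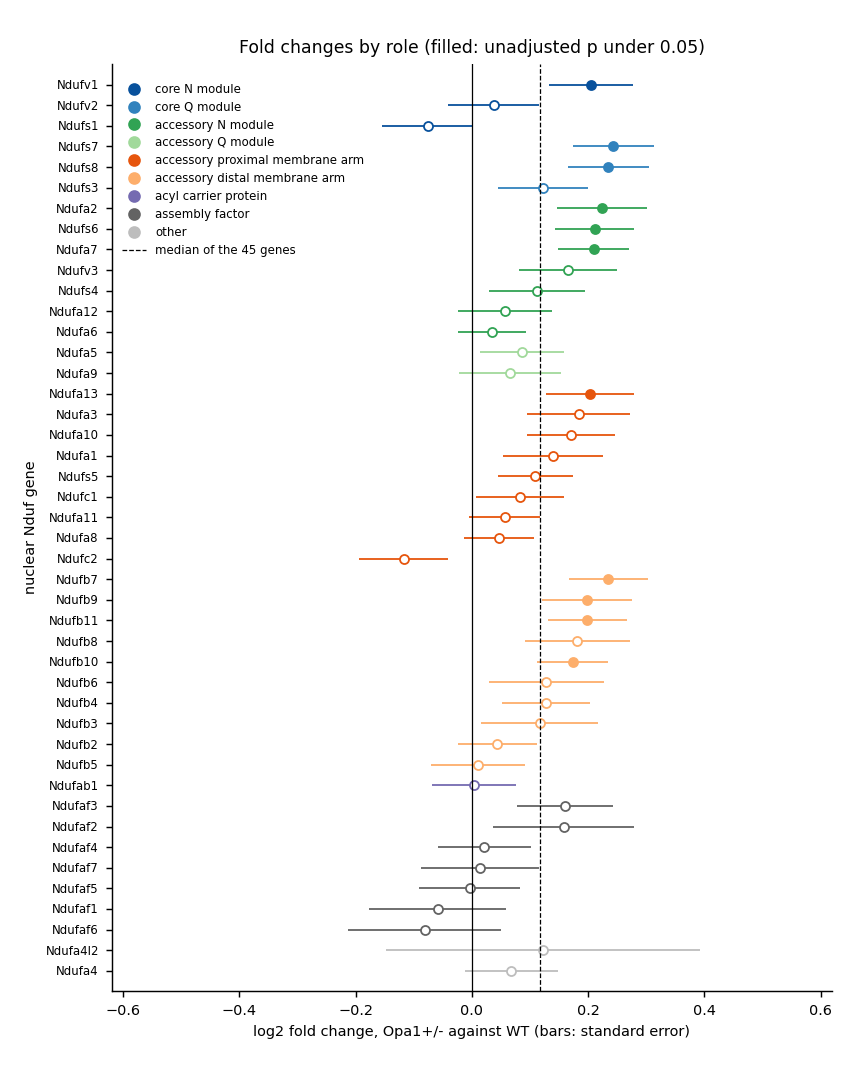
Log2 fold change of Opa1+/- against WT (horizontal axis) for 44 nuclear Nduf genes (vertical axis), with the standard error as a bar and the role as colour. Filled points have an unadjusted p under 0.05, which 11 genes have, all to the right of 0, and the dashed line is the median of all 45, 0.116.

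The 7 assembly factors showed no common direction, with 4 positive and 3 negative log2 fold changes, a median of 0.01 and none with an unadjusted p under 0.05. With offsets for transcript GC and length their median was 0.028, against 0.031 for the accessory subunits. Whether these 2 groups differ was not tested. Ndufaf3 and Ndufaf4 act together on the Q module. Ndufaf3 was at 17.5 to 20.6 CPM in the WT and 19.3 to 23.1 CPM in the Opa1+/- mice, with a log2 fold change of 0.16 (SE 0.0828), and Ndufaf4 at 26.9 to 33.7 CPM in the WT and 30.1 to 33.95 CPM in the Opa1+/- mice, with a log2 fold change of 0.02 (SE 0.0800). Ndufaf5 and Ndufaf7 are enzymes that modify arginines of core subunits. Their log2 fold changes were -0.004 (SE 0.0863) and 0.01 (SE 0.101), and in both the groups overlapped. Ndufaf2, which prepares the docking of the N module, had 0.16 (SE 0.121), Ndufaf1, part of the membrane-arm assembly complex, had -0.06 (SE 0.118), and Ndufaf6, an early Q module factor, had -0.08 (SE 0.131). The standard errors of all 7 exceeded those of every core subunit, and their mean WT levels were 5.31 to 30.9 CPM against 67.7 to 182 CPM for the core subunits. Of 15 assembly factors listed that do not carry the Nduf name, 12 were matched in the tables, 6 had a positive and 6 a negative log2 fold change, none had an unadjusted p under 0.05, and the values ran from -0.03 to 0.08.

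3 genes of the set have other ties. Ndufab1 is the mitochondrial acyl carrier protein, which serves fatty acid and lipoic acid synthesis as well as complex I. It was at 97.4 to 115 CPM in the WT and 99.2 to 112 CPM in the Opa1+/- mice, with a log2 fold change of 0.004 (SE 0.0726). Ndufa4, named for complex I and since placed in complex IV, was at 140 to 169 CPM in the WT and 151 to 179 CPM in the Opa1+/- mice, with a log2 fold change of 0.07 (SE 0.0799). Its paralog Ndufa4l2, which is induced in hypoxia, was scarce, at 1.22 to 2.20 CPM in the WT and 1.30 to 2.42 CPM in the Opa1+/- mice, and its log2 fold change of 0.12 had a standard error of 0.271.

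The 7 subunits encoded by mitochondrial DNA were at 105 ± 35.5 CPM (mt-Nd6) to 13874 ± 2515 CPM (mt-Nd4) in WT cochleae (SD, n = 4). Of these, 6 had a positive log2 fold change, with a median of 0.08, and none had an unadjusted p under 0.05. The mt-Nd1 values were 11022, 13644, 12615 and 9226 CPM in the WT and 11035, 12670, 10782 and 14629 CPM in the Opa1+/- mice, lowest again in WT mouse 8 and highest in Opa1+/- mouse D.

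Compared with each other per kilobase of principal transcript, the Nduf genes in WT cochleae ran from 1.84 to 259 CPM per kilobase. Ndufa4 was the highest at 259 ± 21.4 CPM per kilobase (SD, n = 4), followed by Ndufb10 at 178 ± 10.04 and Ndufa6 at 158 ± 7.49. Ndufa6 and the next gene, Ndufa3 at 151 ± 9.46, did not differ beyond their spread. The lowest was Ndufa4l2 at 1.84 ± 0.565, then Ndufaf6 at 4.91 ± 0.498 and Ndufaf4 at 8.50 ± 0.831 CPM per kilobase. Ndufaf4 and the next gene, Ndufaf1 at 8.77 ± 0.553, did not differ beyond their spread. The assembly factors as a group had a median of 9.58 CPM per kilobase, against 69.0 for the core subunits and 81.9 for the accessory subunits. The order depends on the transcript taken as a gene's length. With the length of all annotated exons joined, Ndufa4 had rank 2, Ndufb10 rank 3 and Ndufa6 rank 19, and Ndufa2, which had rank 8 before, had rank 1.

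The fold changes followed the composition and the length of the transcripts. The 14 Nduf genes with at least 55% G and C in the transcript had a median log2 fold change of 0.20, and 9 of them had an unadjusted p under 0.05. The 12 genes between 50% and 55% had a median of 0.10, with 2 such genes, and the 19 genes under 50% had 0.04, with 0. By length, the 24 genes with transcripts under 1000 bases had a median of 0.15 and held all 8 genes whose groups did not overlap, the 16 genes from 1000 to 2000 bases had 0.06, and the 5 longer ones had 0.02. Among the genes with the higher fold changes, Ndufa2 has 51.7% G and C, and the transcripts of Ndufv1 and Ndufa13 are 1661 and 1251 bases long. Spearman's rho of the log2 fold change over the 45 genes was 0.639 with transcript GC, 0.671 with the GC of the coding sequence alone and -0.423 with transcript length. With the length of all exons joined it was -0.221. These are descriptions over genes that share the same 8 libraries.

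The same slope ran through the other genes. The 11161 genes above 10 CPM with an annotated transcript were put into 5 equal bins (quintiles) by each property. The quintile with the lowest GC had a median log2 fold change of -0.09 and the quintile with the highest GC 0.06, and the share with an unadjusted p under 0.05 and a higher value in Opa1+/- cochleae went from 0.761% to 7.84%. From the longest to the shortest quintile, the median went from -0.07 to 0.08 and this share from 0.582% to 12.3%. The shortest quintile, up to 1585 bases, held 33 of the 43 Nduf genes in this count. In the 544 genes that were in the highest GC and the shortest quintile at once, the median was 0.11 and the share was 19.5%. Only 7 of the Nduf genes were among these 544, so the 24.4% over all 45 Nduf genes is not a like comparison.

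**Figure D4:**
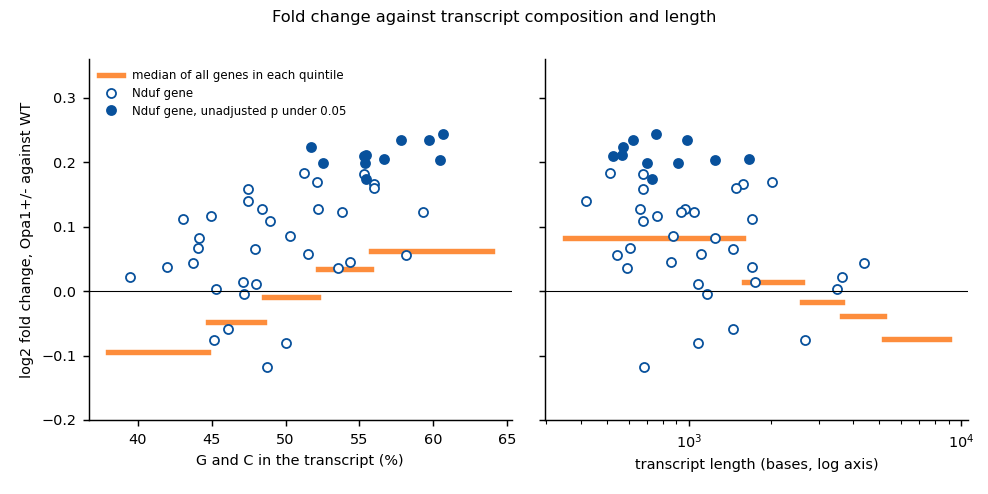
Log2 fold change of Opa1+/- against WT for 44 Nduf genes (points) against the G and C share of the transcript (left, percent) and its length (right, bases, log axis). Orange bars give the median of all genes above 10 CPM in each quintile of that property, the outermost drawn shorter than their range, and they climb from -0.09 to 0.06 with GC and go down from 0.08 to -0.07 with length.

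When each library was given offsets that level its dependence on transcript GC and length over all genes, an alternative added after the data were seen, the median log2 fold change of the 45 genes was 0.03, against 0.116 before, and 33 were positive. Offsets for length alone gave a median of 0.03 with 29 positive, and offsets for GC alone left it at 0.12 with 38 positive. With both, at an unadjusted p under 0.05, 1 of the 45 was higher, against 1.95% of all genes tested, and 2 were lower, against 1.36%. The higher gene was Ndufs4 of the N module, with a log2 fold change of 0.17 (SE 0.0745, unadjusted p = 0.0490 by edgeR). The lower genes were both of the proximal membrane arm, Ndufc2 at -0.22 (unadjusted p = 0.0261 by edgeR) and Ndufa11 at -0.15 (unadjusted p = 0.0367 by edgeR). These 3 genes were picked out after their values were seen, and none passed the adjusted threshold. Ndufs7 then stood at 0.07, Ndufs8 at 0.11, Ndufv1 at 0.13, Ndufb7 at 0.04 and Ndufs1 at -0.02, while Opa1 kept a log2 fold change of -0.75 with an adjusted p of 0.0118. Such offsets take out any difference that follows GC or length, whatever its source, and the source was not tested.

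The mice differed in the Nduf RNAs and in these slopes, and the order of the mice was not the same in each. The median deviation of the 45 genes from their mean over the 8 mice, on the log2 scale, was -0.034, 0.008, -0.033 and -0.194 in the WT mice and 0.048, 0.020, -0.004 and 0.159 in the Opa1+/- mice. The difference between the shortest and the longest quintile of all genes was 0.019, -0.121, -0.111 and -0.115 in the WT mice and 0.047, 0.004, 0.073 and 0.183 in the Opa1+/- mice, so that Opa1+/- mouse D was the highest in both, while WT mouse 5 was the lowest by length and the highest WT mouse in the Nduf genes. The difference between the highest and the lowest GC quintile was -0.129, -0.165, 0.059 and -0.080 in the WT mice and 0.096, 0.068, 0.104 and 0.050 in the Opa1+/- mice. By GC, mouse D was the lowest of the Opa1+/- mice and below WT mouse 6. Without WT mouse 8, the median log2 fold change of the Nduf genes was 0.069 and 5 genes were higher with an unadjusted p under 0.05, and without Opa1+/- mouse D these were 0.070 and 6 genes. The share of all genes at that p with a mouse left out is not given here. These counts therefore cannot be read as particular to the Nduf genes. Of the 11 genes, WT mouse 8 was the lowest of all mice in 10 and Opa1+/- mouse D the highest in 7.

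**Figure D5:**
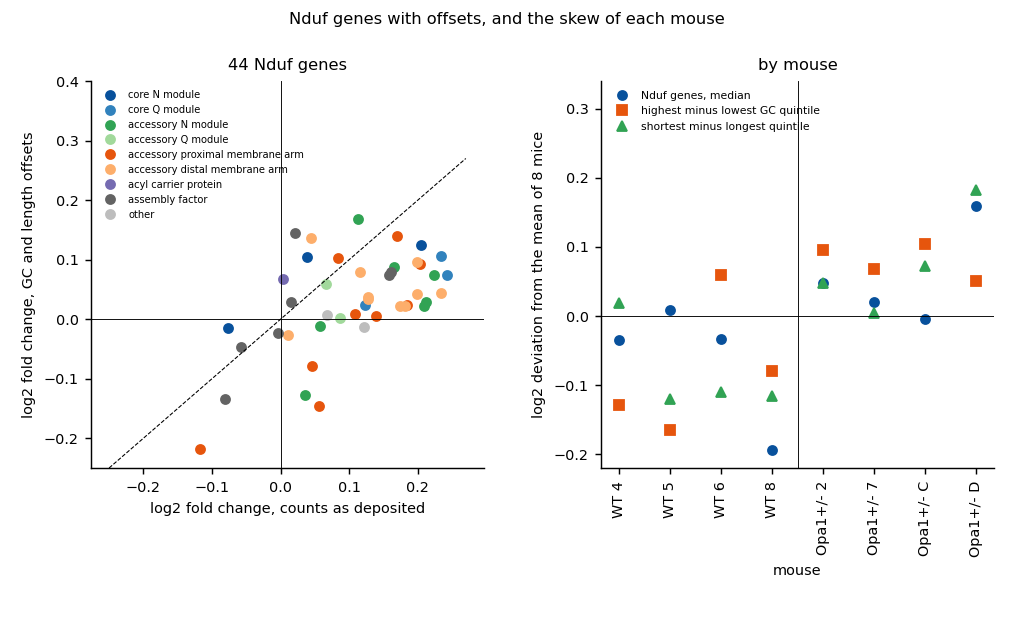
Left, log2 fold change of 44 Nduf genes with GC and length offsets (vertical) against the value from the counts as deposited (horizontal), coloured by role, with a dashed line where both are equal. The median of all 45 goes from 0.116 to 0.03. Right, for each mouse, the median log2 deviation of the Nduf genes (circles, lowest in WT mouse 8 at -0.194 and highest in Opa1+/- mouse D at 0.159) beside the difference between GC quintiles (squares) and between length quintiles (triangles).

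Markers of the cells that a dissected cochlea holds were set beside these values. No list had a gene at 0 in all mice. The 9 erythroid markers found of 10 listed summed to 7749 to 21477 CPM in the WT and 15081 to 25066 CPM in the Opa1+/- mice, and all 9 had a positive log2 fold change, with a median of 0.56. The 10 Schwann and myelin markers summed to 3497 to 4752 CPM in the WT and 4170 to 5629 CPM in the Opa1+/- mice, with 10 of 10 positive and a median of 0.18. The 10 skeletal muscle markers summed to 353 to 2565 CPM in the WT and 172 to 1266 CPM in the Opa1+/- mice, with 0 of 10 positive and a median of -0.72. Markers of cochlear cells were present in every sample. Those of hair cells summed to 107 to 168 CPM in the WT and 125 to 148 CPM in the Opa1+/- mice, of spiral ganglion neurons to 5444 to 6466 and 5683 to 6622 CPM, and of the stria vascularis to 791 to 1529 and 926 to 1097 CPM. Of the 9 stria markers tested 1 had a positive log2 fold change, with a median of -0.15, of the 10 hair cell markers 4, with -0.04, and of the 10 neuron markers 6, with 0.04. Bone markers summed to 1648 to 1924 and 1325 to 1951 CPM, with 3 of 10 positive and a median of -0.05, and neutrophil and marrow markers to 431 to 1421 and 455 to 1176 CPM, with 5 of 10 and -0.01. The groups overlapped in all 8 sums, and the part of these cells in the Nduf values was not tested.

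Upstream of the genes, the 39 Nduf genes with a RefSeq promoter sequence (GRCm38.p6, 250 bases before to 50 after the start) had a median promoter GC of 59.3%, against 52.7% over 27025 genes. YY1 is a factor whose motif often covers the start codon or start site of housekeeping genes. Its letters AAGATGGC, searched on both strands, were in 7 of the 39 promoters (17.9%, against 3.19% of all), in all 7 within the bases after the start, among them those of Ndufs7 and Ndufs6. The core of the motif of NRF1, a regulator of nuclear genes for respiration, was searched as GCATGCGC on both strands, whose matches can overlap each other. It was in 5 (12.8%, against 3.05%): Ndufa6, Ndufa8, Ndufa11, Ndufaf4 and Ndufaf5. The ETS letters CCGGAAGT were in 1 (2.56%, against 4.31%) and the estrogen-related receptor half-site AAGGTCA in 3 (7.69%, against 5.38%). The median log2 fold change was 0.18 for the 7 genes with the YY1 letters and 0.11 for the others, and 0.04 for the 5 genes with the NRF1 letters and 0.13 for the others. A match is a run of letters and not a site shown to be bound.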

How the data were processed

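RNA seq was made from isolated cochleae, 1 sample per mouse, with RNA extracted by TRI Reagent or an RNeasy kit per the labels, which do not say which mouse had which. The authors prepared CORALL libraries with molecular identifiers, sequenced paired reads, ran the CORALL analysis pipeline, used the identifiers against amplification bias, aligned reads with STAR (GRCm38) and deposited raw counts per gene symbol for each mouse. The counting program within it and its use of strand are not given in the sources used here, so counts of overlapping genes and of genes with processed pseudogenes are uncertain. Entries with a number for a name (15, 0.111% to 0.124% of counts) were left out. Depth was 15978051 to 20828030 counts on named genes, and TMM factors ran from 0.948 to 1.06.

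All 19366 genes with a mean normalized count above 10 were fitted together with edgeR 4.0.16 (quasi-likelihood test, TMM, no covariates, R 4.3.3), after a check on simulated data, with Benjamini-Hochberg adjustment and an adjusted threshold of 0.05. The standard error of a log2 fold change is its size over the root of the F statistic. CPM levels have SDs over 4 mice. Mouse samples of the same group differed by 7.0 to 30.7 times counting noise (chi-square per degree of freedom), so none was a duplicate. Transcript length and GC are of the GENCODE vM21 principal transcript, found for all 45 genes. Genes were named by a rule: all core subunits and assembly factors, accessory subunits with an unadjusted p under 0.05, genes without overlap between groups, the 3 highest and 3 lowest levels per kilobase, and genes with a role outside complex I. No entry carried the symbol Ndufb1 or Ndufaf8, so these were not analysed here. Of the 45 genes, 1 enters the counts and medians but is not reported singly. The members, roles and lists were chosen with earlier results of these data known. Alternatives were other scalings, filters and tools (DESeq2 1.42.0, limma 3.58.1 voom), each mouse left out, and offsets for GC and length.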

Additional observations from a re-analysis of the deposited data

Results flagged for a closer look

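In each group of 4 mice, a gene was set apart when the gap between an end value and its neighbour, as a share of the whole range, was above Dixon's 95% critical value. This was so in 7 of 90 groups of 4 values, where chance gives about 1 in 20. In 3 of them Opa1+/- mouse D was the high value: 33.95 CPM of Ndufaf4 (others 30.1 to 30.7), 54.6 CPM of Ndufb2 (others 46.0 to 47.2) and 103 CPM of Ndufb4 (others 87.8 to 90.1). In 2 of them WT mouse 8 was the low value: 67.4 CPM of Ndufs5 (others 76.7 to 77.7) and 67.8 CPM of Ndufs7 (others 80.0 to 81.9). WT mouse 5 was low for Ndufaf5, at 21.3 CPM (others 23.9 to 24.3), and high for Ndufs1, at 149 CPM (others 126 to 128). Ndufb2 and Ndufb4 are distal membrane arm subunits named here for these values alone.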

How the results depend on the processing

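No Nduf gene passed the adjusted threshold under any alternative run. The number with an unadjusted p under 0.05 was 11 to 13 under the 8 other scalings, filters and tools, 5 to 15 (all higher) with a mouse left out, 3 without Opa1+/- mice C and D, and 3 (1 higher), 5 (5 higher) and 3 (2 higher) with offsets for GC and length, GC alone and length alone. The share of all genes at that p is given here only for the main fit and the joint offsets, so the other counts stand without it. The median log2 fold change was 0.069 to 0.146 with a mouse left out, and 0.03 with either offset that holds length (0.0296 and 0.0299), against 0.123 with GC alone. Of the 45 genes, 33 to 41 were positive with a mouse left out and 36 with total counts, against 40 in the main fit. Single gene values were compared for 27 genes, the 26 named by the rule and Opa1. Of these 459 gene values under 17 alternatives, 429 kept direction and call, 28 changed sign and 2 lost the call. Both losses were for Opa1, with log2 fold changes of -0.85 (adjusted p = 0.0704 by edgeR) without Opa1+/- mouse 2 and -0.86 (adjusted p = 0.260 by edgeR) without mice C and D, against -0.87.

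The sign changes listed next are among the 27 genes compared. With a mouse left out, ranges that crossed 0 were -0.0301 to 0.0505 (Ndufab1), -0.0799 to 0.0420 (Ndufaf5), -0.0552 to 0.0773 (Ndufaf7), -0.0434 to 0.0661 (Ndufaf4), -0.0227 to 0.265 (Ndufa4l2) and -0.0150 to 0.0874 (Ndufv2). Ndufab1 was -0.0024 with DESeq2 size factors, -0.0228 with total counts, -0.0009 with voom and -0.0005 without the filter. Ndufaf4 was -0.0044 and Ndufaf7 -0.0171 with total counts, Ndufaf7 was -0.0571 with voom, and without mice C and D Ndufaf4 was -0.0120 and Ndufv2 -0.0032. With GC and length offsets, Ndufa4l2 was -0.0139 and Ndufa6 -0.128. With GC alone, Ndufa6 was -0.0002 and Ndufaf5 0.0250. With length alone, Ndufa4 was -0.0638, Ndufa6 -0.101, Ndufaf7 -0.0149 and Ndufs5 -0.0110. Nduf genes outside this list also changed sign with offsets, among them Ndufa8 (-0.08) and Ndufa11 (-0.15) with GC and length. The cause of these changes was not tested. No paired analysis was possible because the 2 groups share no animal number.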
